A study of Mus musculus with 12 samples.

Results

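NK1.1+ iNKT cells were compared with NK1.1- iNKT cells from the thymus of miR-155KI mice, in which the microRNA miR-155 is expressed from an added allele in T lineage cells. The comparison used 6 of the 12 RNA sequencing libraries of the series, 3 of miR-155KI NK1.1+ cells and 3 of miR-155KI NK1.1- cells, taken by their labels. The other 6 libraries, 3 of WT NK1.1+ and 3 of WT NK1.1- cells, served to show where the difference between the subsets was not the same in the 2 genotypes. All mice were 7 weeks old and on the C57BL/6J background. miR-155KI mice were CD4Cre+ and carried the miR-155 knock-in allele at both copies of Rosa26, and WT mice were CD4Cre- littermates that carried the same allele without the Cre that switches it on. Because Cre was driven by the Cd4 promoter, the allele was switched on in every T cell that had passed the CD4-expressing stages in the thymus and not in iNKT cells alone. Thymocytes were depleted of CD8+ cells, and iNKT cells were sorted with a CD1d tetramer and antibodies to TCRβ, CD44 and NK1.1. The study's methods describe pooled biological replicates and no label says which mice went into a library, so a p-value here reflects variation among libraries, which may be partly technical.

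iNKT cells are T cells with an almost invariant αβ T cell receptor that sees lipids presented by CD1d. They leave the double-positive thymocyte pool, pass through early dividing stages in which they lack NK1.1, and then settle into cells of the iNKT1, iNKT2 or iNKT17 kind, of which iNKT1 cells are marked by the transcription factor T-bet and iNKT2 cells by high PLZF. Acquisition of NK1.1 is the classical sign of the final iNKT1 stage, at which the cells express natural killer (NK) cell receptors, interferon-γ and cytotoxic proteins. The NK1.1- gate holds the early stages together with iNKT2 and iNKT17 cells, and fewer cells of a kind cannot be told apart from less RNA per cell in such bulk libraries.

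miR-155 is processed from the transcript of Mir155hg, a non-coding RNA gene on mouse chromosome 16 (GRCm38, chr16:84703167-84715245). Its mature strands are shown because the knock-in allele adds them in miR-155KI cells. They are written 5′ to 3′ from RefSeq (GRCm38.p6), with the seed (bases 2 to 8), which pairs with target messages, in capitals.
mmu-miR-155-5p (chr16:84714143-84714165, plus strand): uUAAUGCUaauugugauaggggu
mmu-miR-155-3p (chr16:84714182-84714202, plus strand): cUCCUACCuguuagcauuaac

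The miR-155KI NK1.1+ libraries held 14302160, 18334380 and 16481450 counts and the miR-155KI NK1.1- libraries 18274359, 12819476 and 18347011 counts, within the range of 12819476 to 20518257 over all 12 libraries. Levels are given as CPM, the counts of a gene relative to the library's TMM-scaled total over the 12 libraries, for libraries 1, 2 and 3 of a group in that order. Before any comparison, 4 libraries stood apart by RNA of other cells. The summed level of 19 myeloid marker genes was 403, 881 and 229 CPM in miR-155KI NK1.1+ libraries, against 81.6, 43.7 and 117 CPM in miR-155KI NK1.1- libraries, and was highest in NK1.1+ library 2. The summed level of 10 double-positive thymocyte markers was 348, 97.7 and 126 CPM in NK1.1+ libraries, against 101, 76.0 and 93.7 CPM in NK1.1- libraries, and NK1.1+ library 1 was the high one, with 107 CPM of Dntt (terminal transferase). Red cell and thymic epithelial markers summed to 50.5, 51.0 and 1217 CPM in NK1.1+ libraries and 29.1, 32.9 and 323 CPM in NK1.1- libraries, so that library 3 was high in both. Irf8, Fcer1g, Tyrobp, Cx3cr1, Gdf15, Adgre1 and C1qa are given below with and without NK1.1+ library 2. NK1.1+ libraries 1 and 3 also held more myeloid RNA than any NK1.1- library. A call kept without library 2 therefore does not test which cells the RNA came from.

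**Figure D1:**
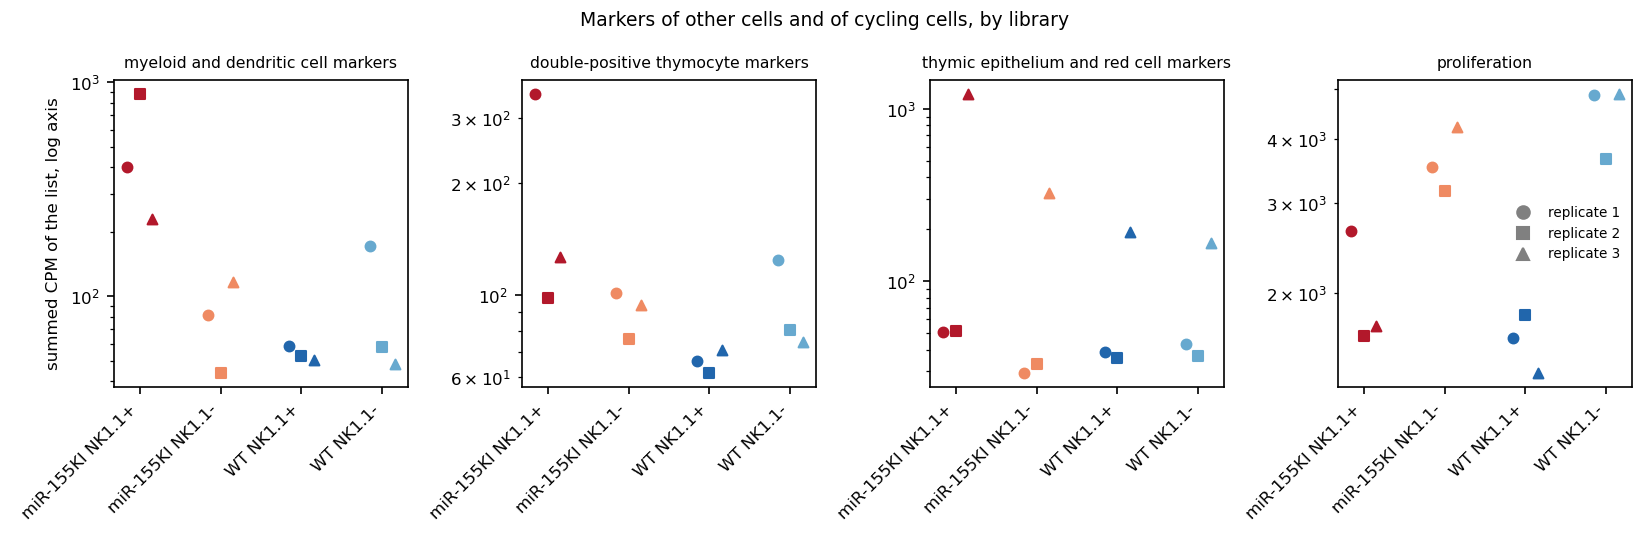
Summed CPM (log axis) of markers of other cells and of cycling cells in each of the 12 libraries, by group, with the replicate number as the symbol. Myeloid RNA was highest in miR-155KI NK1.1+ library 2 (881 CPM), double-positive thymocyte RNA in miR-155KI NK1.1+ library 1 (348 CPM) and red cell RNA in library 3 of each group.

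The allele and the sort were checked first. Mir155hg was at 116, 128 and 95.1 CPM in miR-155KI NK1.1+ libraries and 144, 137 and 131 CPM in miR-155KI NK1.1- libraries, against 12.1, 11.7 and 11.1 CPM in WT NK1.1+ and 13, 13.6 and 9.64 CPM in WT NK1.1- libraries. All 6 miR-155KI libraries lay above all 6 WT libraries. Within miR-155KI the subsets differed by a log2 fold change of −0.28 ± 0.14 (SE), NK1.1+ over NK1.1-, which did not pass the test (adjusted p = 0.219). Klrb1c, which encodes NK1.1 itself (chr6:128778485-128789215), had 464, 486 and 649 CPM in NK1.1+ libraries, against 36.6, 50.6 and 42.9 CPM in NK1.1- libraries (log2 fold change 3.62 ± 0.18, adjusted p = 8.53e-06). The 2 groups did not overlap, and this gene follows from the sort. Cd44, the other sorted surface protein, had 180.4, 334 and 242 CPM in NK1.1+ libraries, against 120.4, 155 and 122 CPM in NK1.1- libraries (log2 fold change 0.93 ± 0.21, adjusted p = 0.0171). The genes of the T cell receptor complex were well expressed in both subsets, with 747, 795 and 832 CPM of Cd3e in NK1.1+ libraries and 591, 587 and 576 CPM in NK1.1- libraries. Of 16 genes of the receptor and of iNKT identity 5 rose, 3 fell and 8 did not pass, and the invariant receptor's own segments were among those that rose. From 0 to 6 of the list were called higher without any 1 library. Trav11, the Vα14 segment, had 363, 581 and 553 CPM in NK1.1+ libraries, against 267, 286 and 265 CPM in NK1.1- libraries (log2 fold change 0.87 ± 0.17, adjusted p = 0.0079). Traj18 had 48.9, 77.3 and 83 CPM in NK1.1+ libraries, against 38.9, 42.6 and 42.1 CPM in NK1.1- libraries (log2 fold change 0.76 ± 0.20, adjusted p = 0.0348).

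Across the 12942 genes that passed the filter on low counts, edgeR's quasi-likelihood test with Benjamini-Hochberg adjustment called 1025 genes higher (7.92%) and 796 lower (6.15%) in miR-155KI NK1.1+ than in miR-155KI NK1.1- cells at an adjusted p under 0.05, or 14.1% in either direction. Of these, 537 higher and 516 lower genes changed by more than 2-fold. The shares of all tested genes, 7.92% higher and 6.15% lower, are the background for the counts of list members below. The lists were chosen with earlier results of these data known, so a count above that background is not independent evidence. The median log2 fold change over all tested genes was 0.03, which TMM scaling holds near 0. The groups did not overlap for 17.5% of all tested genes with NK1.1+ higher and for 17.1% with NK1.1+ lower. The first principal component of the 6 libraries held 53.9% of the variance and separated the subsets, with scores of 19.1, 58.0 and 44.6 for NK1.1+ and −42.2, −35.4 and −44.2 for NK1.1- libraries. NK1.1+ library 1, the library with thymocyte RNA, lay nearest to the NK1.1- libraries. Replicate libraries correlated at 0.952 to 0.960 within NK1.1+ and at 0.984 to 0.989 within NK1.1- cells. On a log2(CPM + 1) scale limma called 753 genes higher and 1118 lower, which turns the balance of directions round. Leaving out NK1.1- library 1, 2 or 3 left 791, 923 or 788 calls, and leaving out NK1.1+ library 1, 2 or 3 gave 2542, 1800 or 1487.

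The genes of the type 1 (interferon-γ) programme were higher in NK1.1+ cells. Of 19 tested regulators and receptors, 15 rose (background 7.92% of all genes) and none fell in the main fit, with a median log2 fold change of 2.01. Tbx21, the gene of T-bet (chr11:97098071-97115331), had 268, 516 and 429 CPM in NK1.1+ libraries, against 43.6, 64.5 and 65.6 CPM in NK1.1- libraries (log2 fold change 2.81 ± 0.25, adjusted p = 9.38e-05). Ifng, the gene of interferon-γ, had 137, 269 and 211 CPM in NK1.1+ libraries, against 16.3, 24.5 and 21.7 CPM in NK1.1- libraries (log2 fold change 3.31 ± 0.26, adjusted p = 4.58e-05). Stat4, which carries the interleukin-12 signal, had 65.2, 83 and 102 CPM in NK1.1+ libraries, against 7.05, 8.04 and 7.86 CPM in NK1.1- libraries (log2 fold change 3.44 ± 0.21, adjusted p = 1.48e-05). In all 3 genes each NK1.1+ library lay above each NK1.1- library, and NK1.1+ library 1 was the lowest of its group. The receptor side rose as well. Il12rb2, the inducible interleukin-12 receptor chain, had 85.1, 83.5 and 119 CPM in NK1.1+ libraries, against 7.62, 13.5 and 13 CPM in NK1.1- libraries (log2 fold change 3.08 ± 0.25, adjusted p = 5.70e-05). Il18rap, a chain of the interleukin-18 receptor, had 99.998, 153 and 173 CPM in NK1.1+ libraries, against 14.8, 25.3 and 23.2 CPM in NK1.1- libraries (log2 fold change 2.75 ± 0.26, adjusted p = 1.21e-04). Ifngr1, the ligand-binding chain of the interferon-γ receptor, had 260.5, 409 and 388 CPM in NK1.1+ libraries, against 52.2, 59.7 and 60.3 CPM in NK1.1- libraries (log2 fold change 2.62 ± 0.18, adjusted p = 2.05e-05). Il2rb, the chain shared by the interleukin-2 and interleukin-15 receptors, had 1676, 2298 and 2231 CPM in NK1.1+ libraries, against 469, 520.1 and 563 CPM in NK1.1- libraries (log2 fold change 2.00 ± 0.14, adjusted p = 2.70e-05). None of these 4 receptor genes overlapped between the subsets.

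The other type 1 genes that rose included further transcription factors. Runx3, which acts with T-bet in cytotoxic lineages, had 139, 218 and 167 CPM in NK1.1+ libraries, against 34.5, 36.7 and 27.3 CPM in NK1.1- libraries (log2 fold change 2.41 ± 0.20, adjusted p = 5.70e-05). Hopx, a homeodomain protein of effector T cells, had 153, 302 and 265 CPM in NK1.1+ libraries, against 36.9, 46.3 and 55.7 CPM in NK1.1- libraries (log2 fold change 2.38 ± 0.25, adjusted p = 2.65e-04). Irf8 had 61.9, 64.9 and 67.1 CPM in NK1.1+ libraries, against 19.3, 18.7 and 10.1 CPM in NK1.1- libraries (log2 fold change 2.01 ± 0.25, adjusted p = 7.73e-04). Irf8 is also a myeloid gene, and without NK1.1+ library 2, which held the most myeloid RNA, its log2 fold change was 2.00 (adjusted p = 0.00271). Bhlhe40, a regulator of cytokine expression, had 259, 344 and 406 CPM in NK1.1+ libraries, against 62.3, 81.1 and 70.9 CPM in NK1.1- libraries (log2 fold change 2.24 ± 0.18, adjusted p = 5.02e-05). Id2, which holds E proteins off DNA, had 1056, 1580.0 and 1685 CPM in NK1.1+ libraries, against 549, 608 and 634 CPM in NK1.1- libraries (log2 fold change 1.27 ± 0.17, adjusted p = 9.53e-04). Without NK1.1+ library 1, 2 or 3, or an NK1.1- library, 13 to 15 of the type 1 genes were called higher and 0 to 1 lower. DESeq2, limma-voom and a block on the replicate number also called 1 member lower. In WT cells 12 of 19 tested members rose and 2 fell. Members that did not pass in the main miR-155KI fit included Il12rb1, Il15ra and Ifngr2. Ifngr2, the signalling chain of the interferon-γ receptor, had 16.1, 2.1 and 3.34 CPM in NK1.1+ libraries, against 28.7, 31.6 and 26.1 CPM in NK1.1- libraries (log2 fold change −2.01 ± 0.63, adjusted p = 0.0621). All 3 NK1.1+ libraries lay below the NK1.1- libraries for Ifngr2, with library 1 far above the others of its group, and the difference did not pass the test.

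NK cell receptors and their adaptors were higher in NK1.1+ cells. All 19 tested members rose, with a median log2 fold change of 3.62, and 4 of the 23 members in the table were too low to test. The filter could let in a member low in NK1.1- cells through its NK1.1+ level alone, so the share that rose was partly set by the filter. With at least 10 counts in every library 17 of 17 rose, and with no filter 19 of 22 did. Klrk1 (NKG2D, which sees stress ligands) had 354, 608 and 539.9 CPM in NK1.1+ libraries, against 28.2, 44.9 and 33.3 CPM in NK1.1- libraries (log2 fold change 3.82 ± 0.24, adjusted p = 1.48e-05). Klrd1 (CD94, the partner of the NKG2 receptors) had 284, 429.8 and 460.1 CPM in NK1.1+ libraries, against 23.4, 36.5 and 31 CPM in NK1.1- libraries (log2 fold change 3.70 ± 0.23, adjusted p = 1.48e-05). Its partner Klrc1, an inhibitory NKG2 receptor, had 63.4, 83.7 and 100.1 CPM in NK1.1+ libraries, against 5.09, 9.02 and 8.93 CPM in NK1.1- libraries (log2 fold change 3.43 ± 0.27, adjusted p = 5.02e-05). The activating partner Klrc2 had 117, 103 and 205 CPM in NK1.1+ libraries, against 8.49, 9.77 and 9.47 CPM in NK1.1- libraries (log2 fold change 3.94 ± 0.27, adjusted p = 2.19e-05). Receptors of both signs thus rose, and no NK1.1- library came near an NK1.1+ library in any of these 4 genes.
Slamf7, a receptor of NK cells, had 154, 216 and 263 CPM in NK1.1+ libraries, against 14.2, 17.9 and 19.4 CPM in NK1.1- libraries (log2 fold change 3.62 ± 0.22, adjusted p = 1.48e-05). Cd244 (2B4) had 25.6, 31.5 and 44.4 CPM in NK1.1+ libraries, against 1.85, 3.31 and 2.03 CPM in NK1.1- libraries (log2 fold change 3.83 ± 0.35, adjusted p = 1.21e-04). Ncr1 (NKp46), a defining NK cell receptor, was low throughout, with 6.29, 8.42 and 7.56 CPM in NK1.1+ libraries, against 0.0515, 0.451 and 0.267 CPM in NK1.1- libraries (log2 fold change 4.87 ± 0.77, adjusted p = 0.00279).

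Adaptors, which carry the receptors' signals, rose by different amounts. Fcer1g, a signalling chain of Fc and NK receptors, had 197, 351 and 248 CPM in NK1.1+ libraries, against 25.2, 30.2 and 35.6 CPM in NK1.1- libraries (log2 fold change 3.13 ± 0.23, adjusted p = 2.72e-05). Hcst (DAP10, the partner of NKG2D) had 238, 404 and 437 CPM in NK1.1+ libraries, against 152, 163 and 168 CPM in NK1.1- libraries (log2 fold change 1.16 ± 0.20, adjusted p = 0.00428). Tyrobp (DAP12) had 19.7, 23.7 and 4.41 CPM in NK1.1+ libraries, against 2.62, 1.73 and 2.62 CPM in NK1.1- libraries (log2 fold change 2.77 ± 0.60, adjusted p = 0.0135), with NK1.1+ library 3 close to the NK1.1- level. Fcer1g and Tyrobp are also myeloid genes, and myeloid markers were highest in NK1.1+ library 2, which also held the most Fcer1g and Tyrobp. Without that library the log2 fold change was 2.87 for Fcer1g (adjusted p = 7.57e-05) and 2.36 for Tyrobp (adjusted p = 0.0367). In WT cells, whose NK1.1+ libraries held 50.4 to 58.3 CPM of myeloid markers, Fcer1g had 239.8, 171 and 149 CPM in NK1.1+ libraries, against 33.1, 27.6 and 19.2 CPM in NK1.1- libraries (log2 fold change 2.78 ± 0.24, adjusted p = 4.60e-05). Between 17 and 19 of the receptors and adaptors were called higher when any 1 library was left out.

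The Ly49 receptors, which read classical MHC class I in the mouse, followed. Of 11 tested members 10 rose and none fell, with a median log2 fold change of 3.49. The same limit of the filter holds here, with 8 of 9 higher at 10 or more counts in every library and 9 of 13 with no filter. Klra9 had 354, 318 and 639 CPM in NK1.1+ libraries, against 26.4, 37.6 and 32.1 CPM in NK1.1- libraries (log2 fold change 3.77 ± 0.27, adjusted p = 2.77e-05). Klra1 (Ly49A) had 327, 360.3 and 552 CPM in NK1.1+ libraries, against 71.2, 82.8 and 81.8 CPM in NK1.1- libraries (log2 fold change 2.39 ± 0.19, adjusted p = 5.43e-05), the smallest rise among the members that passed. Klra7 (Ly49G) had 138, 102 and 159 CPM in NK1.1+ libraries, against 7.92, 13.4 and 7.65 CPM in NK1.1- libraries (log2 fold change 3.79 ± 0.26, adjusted p = 2.37e-05). Klra5 had 41.7, 105 and 72.5 CPM in NK1.1+ libraries, against 5.66, 9.32 and 4.71 CPM in NK1.1- libraries (log2 fold change 3.49 ± 0.38, adjusted p = 3.31e-04). In each of these 4 genes the groups did not overlap. Klra4 (Ly49D) was the member that did not pass, with 4.04, 66.8 and 3.91 CPM in NK1.1+ libraries, against 1.18, 12.9 and 2.09 CPM in NK1.1- libraries (log2 fold change 2.23 ± 1.41, adjusted p = 0.371). It was high in library 2 of both subsets, and WT cells showed the same, at 3.51, 39.8 and 4.05 CPM in NK1.1+ and 1.95, 14.3 and 1.67 CPM in NK1.1- libraries. Ly49 genes are near-identical copies, so the split of reads between them depends on the counting method, and single members are uncertain.

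The Klr and Klra genes lie together in the NK gene complex of chromosome 6, and the genes between them could be read with them. Between chr6:128609227 and chr6:131247362 (2638 kb), 22 genes of the 2 lists were tested and 21 were called higher, with log2 fold changes of 2.32 to 3.99. Taking every tested gene in that span, 26 of 32 rose, none fell and 6 did not pass. These 32 include the 22 list genes, so the wider count largely repeats the 21 called above. Genes low in NK1.1- cells could enter these counts through their NK1.1+ level alone. Genes of the span outside the receptor lists that rose included Clec2d, a ligand of an NK1.1-family receptor, with 37, 19.1 and 40.9 CPM in NK1.1+ libraries, against 9.78, 14.1 and 19.3 CPM in NK1.1- libraries (log2 fold change 1.17 ± 0.34, adjusted p = 0.0476) and overlapping groups, and Cd69, an early activation and retention molecule, with 120.0, 160.5 and 102 CPM in NK1.1+ libraries, against 57.5, 86.6 and 67.1 CPM in NK1.1- libraries (log2 fold change 0.86 ± 0.20, adjusted p = 0.0213).

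**Figure D2:**
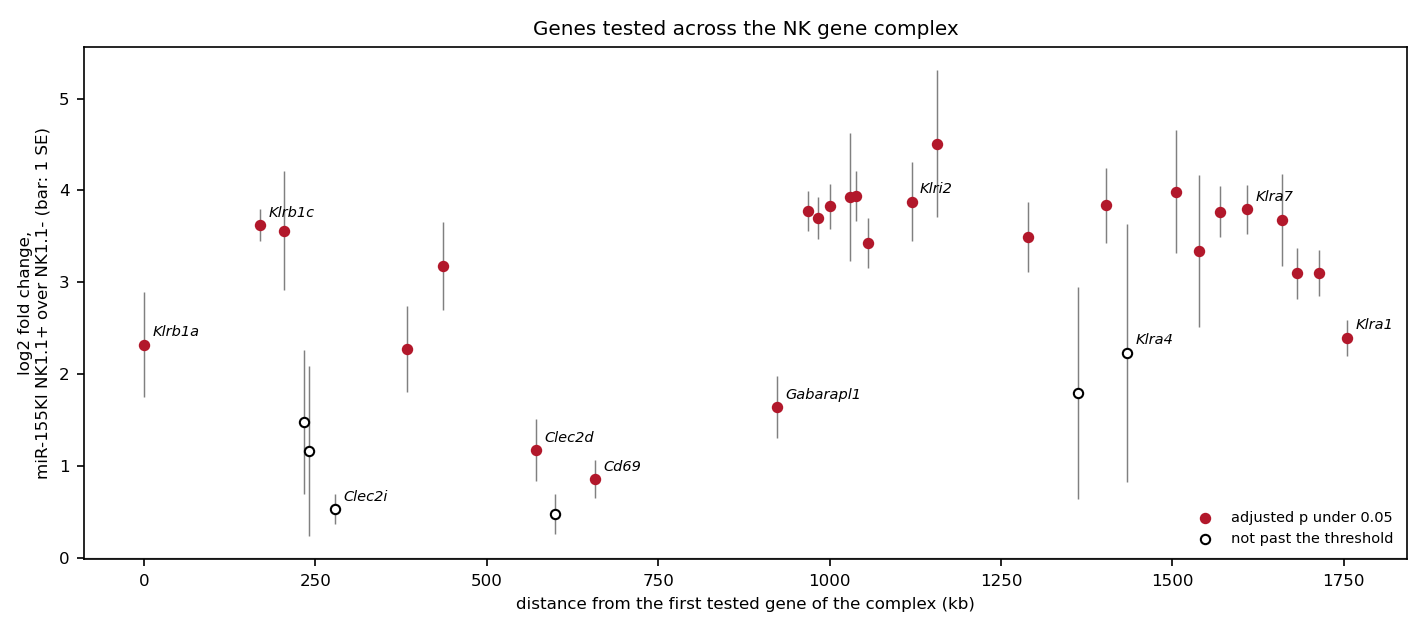
Log2 fold change, miR-155KI NK1.1+ over NK1.1-, with 1 SE, of each of the 32 tested genes of the NK gene complex against distance from the first gene (kb). Filled points passed an adjusted p of 0.05, and 26 of the 32 genes did so, all above 0.

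Granzymes, perforin and a death ligand were higher in NK1.1+ cells. Of 17 tested cytotoxic genes, 10 rose, none fell and 7 did not pass (median log2 fold change 1.60). Gzmb (granzyme B) had 324, 578 and 481 CPM in NK1.1+ libraries, against 37.4, 47.1 and 39.95 CPM in NK1.1- libraries (log2 fold change 3.48 ± 0.21, adjusted p = 1.48e-05). Gzma (granzyme A) had 75.5, 186 and 104 CPM in NK1.1+ libraries, against 9.11, 12.6 and 9.79 CPM in NK1.1- libraries (log2 fold change 3.54 ± 0.33, adjusted p = 1.18e-04). Prf1 (perforin, which opens the target membrane) had 41.1, 90.4 and 74.9 CPM in NK1.1+ libraries, against 8.23, 5.86 and 8.5 CPM in NK1.1- libraries (log2 fold change 3.19 ± 0.31, adjusted p = 1.69e-04). Fasl, a death ligand, had 90.3, 139 and 198 CPM in NK1.1+ libraries, against 11.8, 18.4 and 16.3 CPM in NK1.1- libraries (log2 fold change 3.20 ± 0.29, adjusted p = 1.03e-04). All 4 were without overlap, and NK1.1+ library 1 was the lowest of its group for each. Nkg7, a granule membrane protein, had 947, 1847 and 1822 CPM in NK1.1+ libraries, against 112, 157 and 141 CPM in NK1.1- libraries (log2 fold change 3.49 ± 0.26, adjusted p = 3.21e-05). Among the genes that did not pass, Srgn (serglycin) was at 451, 615 and 574 CPM in NK1.1+ libraries and 439, 547 and 513 CPM in NK1.1- libraries (adjusted p = 0.614). Unc13d, a factor of granule release, was at 282, 346 and 259 CPM in NK1.1+ libraries and 294, 262 and 242 CPM in NK1.1- libraries (adjusted p = 0.539). Granzyme genes are close copies, with the same limit on counting as the Ly49 genes.

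All 4 tested chemokine genes rose (median log2 fold change 3.13), and 4 others were too low to test. With no filter on low counts 4 of 8 rose. Xcl1 (lymphotactin, which draws cross-presenting dendritic cells) had 259, 409.6 and 417 CPM in NK1.1+ libraries, against 31.1, 41.8 and 39.2 CPM in NK1.1- libraries (log2 fold change 3.28 ± 0.21, adjusted p = 1.48e-05). Ccl5 (RANTES) had 119, 246 and 229 CPM in NK1.1+ libraries, against 19.4, 23.9 and 25.4 CPM in NK1.1- libraries (log2 fold change 3.12 ± 0.26, adjusted p = 7.20e-05). Ccl4 had 14.1, 21.5 and 10.7 CPM in NK1.1+ libraries, against 1.24, 2.03 and 1.98 CPM in NK1.1- libraries (log2 fold change 3.15 ± 0.44, adjusted p = 0.00146). Cxcl10, an interferon-induced ligand of CXCR3, had 23, 18.2 and 31.2 CPM in NK1.1+ libraries, against 5.45, 8.72 and 5.62 CPM in NK1.1- libraries (log2 fold change 1.87 ± 0.33, adjusted p = 0.00491). No NK1.1- library reached an NK1.1+ library in any of the 4.

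**Figure D3:**
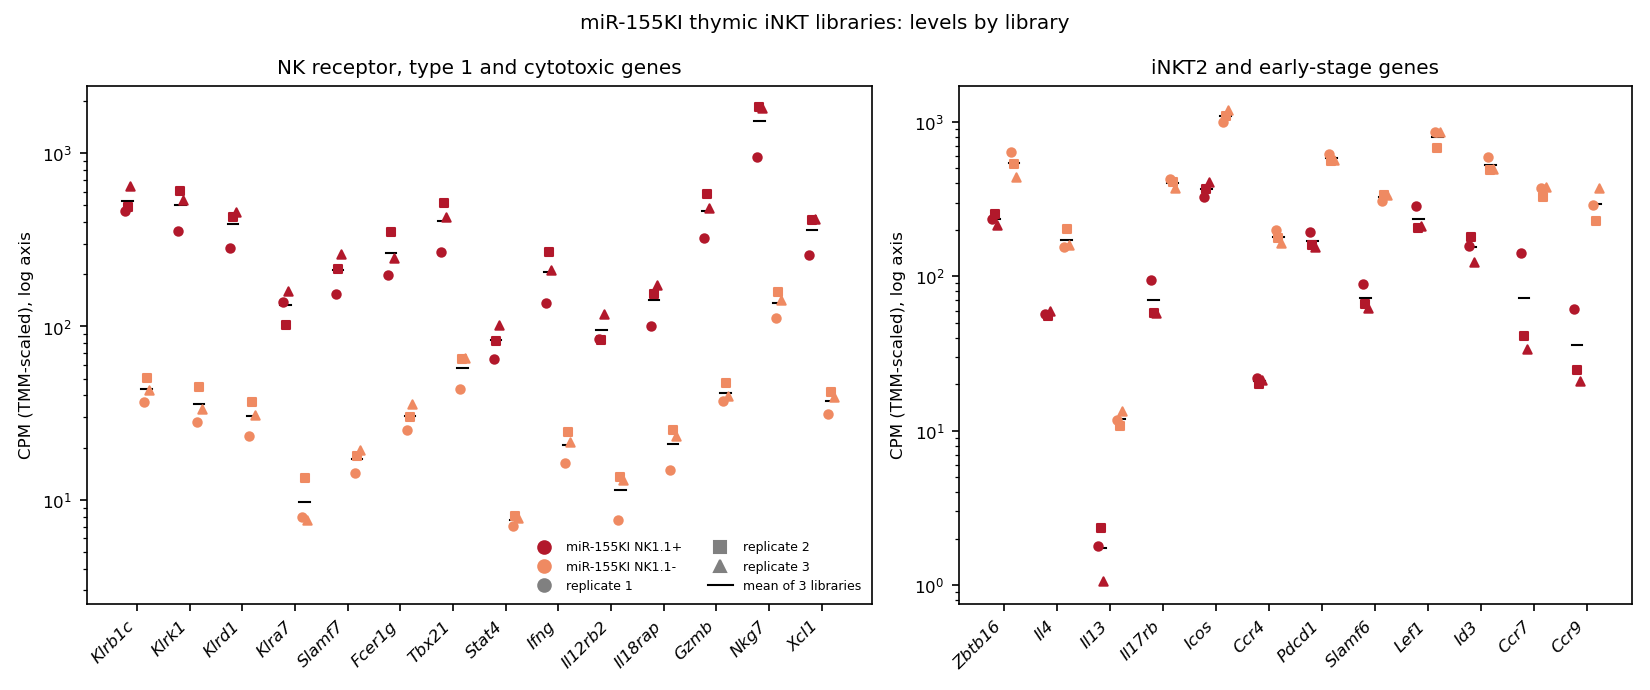
CPM (log axis) of named genes in each miR-155KI library, NK1.1+ left of NK1.1-, with the mean of 3 libraries as a line. Every NK receptor, type 1 and cytotoxic gene drawn was higher in NK1.1+ libraries, as for Klrb1c at 464 to 649 CPM against 36.6 to 50.6 CPM, and the iNKT2 and early-stage genes drawn had lower NK1.1+ means.

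The T-box motif that T-bet binds (TCACACCT, read on both strands) was looked for in the windows from 250 bases before to 50 after each start site in RefSeq (GRCm38.p6), since Tbx21 was among the type 1 genes that rose. It stood in 1 of 61 windows (1.64%) of the 46 matched genes, of 58, that rose in the type 1, NK receptor, Ly49, cytotoxic and chemokine lists. The share was 0.839% of the windows of all tested genes and 1.28% of all 32851 windows. A single match does not set these lists apart from those shares, and binding was not tested. The 1 match was at Nkg7, 14 bases before the start, and is shown with the motif, here in its reverse form AGGTGTGA, in capitals.
Nkg7 (chr7:43437113-43437142, plus strand): gggggtagggaAGGTGTGAgaagaatcaga
The motif also stood in 1 of 13 windows (7.69%) of the 11 matched iNKT2 genes that fell, at the far end of the window of Plac8.
Plac8 (chr5:100572426-100572455, minus strand): aAGGTGTGAgactcggagagctttgtcagg

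Genes of tissue residency rose together in NK1.1+ cells, 11 of 11 tested, with a median log2 fold change of 2.30. Zfp683 (Hobit, a transcription factor of resident lymphocytes) had 152, 178 and 179 CPM in NK1.1+ libraries, against 22.8, 25.6 and 27.1 CPM in NK1.1- libraries (log2 fold change 2.75 ± 0.14, adjusted p = 8.53e-06). Itgae (CD103, which binds E-cadherin) had 399, 655 and 579 CPM in NK1.1+ libraries, against 96.6, 89.4 and 112 CPM in NK1.1- libraries (log2 fold change 2.45 ± 0.18, adjusted p = 3.54e-05). Itga1 (CD49a, a collagen receptor) had 53, 149 and 81.5 CPM in NK1.1+ libraries, against 6.69, 9.39 and 8.02 CPM in NK1.1- libraries (log2 fold change 3.56 ± 0.36, adjusted p = 2.26e-04). Rgs1, a brake on chemokine receptor signalling, had 333, 442 and 651 CPM in NK1.1+ libraries, against 56.5, 75.3 and 63.4 CPM in NK1.1- libraries (log2 fold change 2.87 ± 0.23, adjusted p = 5.61e-05). None of the 4 overlapped. Without NK1.1- library 3, 7 of the 11 were called, and between 7 and 11 were called without any 1 library.

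Of 18 chemokine and egress receptors, 6 rose and 7 fell, and without any 1 library 3 to 6 rose and 4 to 8 fell. Cxcr3, the receptor of type 1 cells, had 289, 535 and 591 CPM in NK1.1+ libraries, against 58.5, 77 and 93.6 CPM in NK1.1- libraries (log2 fold change 2.63 ± 0.27, adjusted p = 2.12e-04). Ccr8 had 197, 258 and 286 CPM in NK1.1+ libraries, against 75.2, 85.6 and 89.2 CPM in NK1.1- libraries (log2 fold change 1.57 ± 0.15, adjusted p = 1.59e-04). On the other side, Ccr4, a receptor of type 2 cells, had 22, 19.9 and 21.2 CPM in NK1.1+ libraries, against 200.2, 177 and 165 CPM in NK1.1- libraries (log2 fold change −3.10 ± 0.14, adjusted p = 8.47e-06). Ccr9, a receptor of developing thymocytes, had 61.3, 24.9 and 21.1 CPM in NK1.1+ libraries, against 287, 228 and 372 CPM in NK1.1- libraries (log2 fold change −3.05 ± 0.39, adjusted p = 9.56e-04). Ccr7, which guides thymocytes to the medulla, had 142, 40.9 and 33.8 CPM in NK1.1+ libraries, against 375, 324 and 380.2 CPM in NK1.1- libraries (log2 fold change −2.32 ± 0.55, adjusted p = 0.0373). NK1.1+ library 1, which held the thymocyte RNA, was the highest of its group for Ccr9 and Ccr7, and without it the log2 fold change was −3.69 for Ccr9 (adjusted p = 5.05e-05) and −3.27 for Ccr7 (adjusted p = 1.08e-05). S1pr1, the receptor for exit from the thymus, fell to 94.9, 45.4 and 52 CPM in NK1.1+ libraries, against 143, 117 and 128 CPM in NK1.1- libraries (log2 fold change −1.01 ± 0.25, adjusted p = 0.0249), whereas S1pr5, used by NK cells, was low and higher in NK1.1+ cells, with 5.5, 3.92 and 11.7 CPM in NK1.1+ libraries, against 0.206, 0.376 and 0.428 CPM in NK1.1- libraries (log2 fold change 4.36 ± 0.71, adjusted p = 0.00333). Cx3cr1, which is also a macrophage gene, had 15.1, 54.1 and 7.18 CPM in NK1.1+ libraries, against 4.94, 7.59 and 3.69 CPM in NK1.1- libraries (log2 fold change 2.24 ± 0.66, adjusted p = 0.0495), with the highest level in NK1.1+ library 2, where myeloid markers were highest. Without that library Cx3cr1 did not pass, with a log2 fold change of 1.04 (adjusted p = 0.173).

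Genes of the iNKT2 kind were higher in NK1.1- cells. Of 16 tested, 14 fell in NK1.1+ cells (background 6.15%), 2 rose, and the median log2 fold change was −1.68. Zbtb16, the gene of PLZF (chr9:48654297-48836222), had 234, 253 and 216 CPM in NK1.1+ libraries, against 639, 536 and 438 CPM in NK1.1- libraries (log2 fold change −1.20 ± 0.15, adjusted p = 7.35e-04). Il4 had 56.7, 55.2 and 59.996 CPM in NK1.1+ libraries, against 154, 202 and 159 CPM in NK1.1- libraries (log2 fold change −1.58 ± 0.14, adjusted p = 9.68e-05). Il13 had 1.79, 2.34 and 1.07 CPM in NK1.1+ libraries, against 11.7, 10.7 and 13.5 CPM in NK1.1- libraries (log2 fold change −2.78 ± 0.45, adjusted p = 0.00335). For these 3 genes the subsets did not overlap. The receptor Il17rb, which marks iNKT2 cells and binds interleukin-25, had 94, 57.8 and 57.7 CPM in NK1.1+ libraries, against 424, 410.2 and 375 CPM in NK1.1- libraries (log2 fold change −2.53 ± 0.19, adjusted p = 4.17e-05). Costimulatory and inhibitory receptors of the list moved with it. Icos had 326, 369.8 and 405 CPM in NK1.1+ libraries, against 991, 1096 and 1200.1 CPM in NK1.1- libraries (log2 fold change −1.58 ± 0.12, adjusted p = 4.25e-05). Pdcd1 (PD-1) had 194, 160.0 and 154 CPM in NK1.1+ libraries, against 614, 561 and 569.8 CPM in NK1.1- libraries (log2 fold change −1.78 ± 0.12, adjusted p = 2.22e-05). Slamf6, a receptor used in iNKT selection, had 89.7, 65.6 and 61.9 CPM in NK1.1+ libraries, against 309, 334 and 336 CPM in NK1.1- libraries (log2 fold change −2.17 ± 0.15, adjusted p = 2.57e-05). Gata3, the master factor of type 2 cells, fell by less, with 361, 479 and 413 CPM in NK1.1+ libraries, against 635, 549 and 597 CPM in NK1.1- libraries (log2 fold change −0.51 ± 0.13, adjusted p = 0.0275). NK1.1+ library 2, at 479 CPM, was the nearest to the NK1.1- libraries for Gata3.

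The 2 members that rose were Il4ra, the interleukin-4 receptor chain, with 93.6, 117 and 114 CPM in NK1.1+ libraries, against 25.3, 23.3 and 30.6 CPM in NK1.1- libraries (log2 fold change 2.04 ± 0.16, adjusted p = 5.26e-05), and Nfil3, a transcription factor of NK and innate lymphoid cells, with 14.4, 16.8 and 24.7 CPM in NK1.1+ libraries, against 7.62, 9.69 and 4.92 CPM in NK1.1- libraries (log2 fold change 1.33 ± 0.36, adjusted p = 0.0366). Plac8, whose window is printed above, had 98.4, 87.9 and 90.3 CPM in NK1.1+ libraries, against 378, 388 and 385 CPM in NK1.1- libraries (log2 fold change −2.06 ± 0.11, adjusted p = 8.53e-06). Between 11 and 14 iNKT2 genes were called lower when any 1 library was left out.

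The iNKT17 genes Il23r, Il17a and Sdc1 were at a few CPM in both subsets of miR-155KI cells. Of 20 tested genes, 5 fell (3 to 4 without any 1 library), 1 rose and 14 did not pass, and the median log2 fold change was −0.01. That median was −0.72 without NK1.1+ library 1 and 0.45 without NK1.1- library 3, so its sign rested on single libraries. Il23r, the interleukin-23 receptor, was at 1.59, 0.585 and 0.756 CPM in NK1.1+ libraries and 0.669, 0.526 and 2.3 CPM in NK1.1- libraries. Il17a was at 1.13, 0.409 and 0.693 CPM in NK1.1+ libraries and 1.13, 0.827 and 1.5 CPM in NK1.1- libraries. Sdc1 (syndecan-1) was at 3.51, 1.58 and 1.58 CPM in NK1.1+ libraries and 3.86, 2.03 and 4.92 CPM in NK1.1- libraries. The 3 genes did not pass in miR-155KI. Those that fell were Rora, Ccr2, Blk, Nrp1 and Sox13, and the 1 that rose was Aqp3. Sox13 had 15.6, 10.2 and 12.6 CPM in NK1.1+ libraries, against 90.2, 94.1 and 30.6 CPM in NK1.1- libraries (log2 fold change −2.49 ± 0.39, adjusted p = 0.00286). Nrp1 (neuropilin 1) had 27.9, 31.9 and 31.6 CPM in NK1.1+ libraries, against 59, 72.7 and 58 CPM in NK1.1- libraries (log2 fold change −1.05 ± 0.17, adjusted p = 0.003). In WT cells 10 of 21 tested members fell and the median was −1.71, and with the replicate number as a block 16 fell.

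Early-stage genes were higher in NK1.1- cells in part. Of 22 genes of stages 0 and 1, 9 fell in NK1.1+ cells, 2 rose and 11 did not pass (median −0.74). Lef1, an HMG-box factor of early thymic development, had 286, 206 and 210.4 CPM in NK1.1+ libraries, against 861, 676 and 861 CPM in NK1.1- libraries (log2 fold change −1.77 ± 0.16, adjusted p = 9.91e-05). Id3, which with Id2 opposes E proteins, had 157, 181 and 123 CPM in NK1.1+ libraries, against 589, 491 and 498 CPM in NK1.1- libraries (log2 fold change −1.77 ± 0.16, adjusted p = 9.34e-05), so that Id2 rose and Id3 fell. Tox, an HMG-box factor needed for CD4 lineage cells, had 141, 139.5 and 109 CPM in NK1.1+ libraries, against 287, 225 and 279 CPM in NK1.1- libraries (log2 fold change −1.02 ± 0.15, adjusted p = 0.00152). Tox2 had 18.8, 6.84 and 14 CPM in NK1.1+ libraries, against 157, 109 and 125 CPM in NK1.1- libraries (log2 fold change −3.31 ± 0.32, adjusted p = 1.69e-04). All 3 NK1.1+ libraries were below all NK1.1- libraries for these 4 genes. Tcf7 (TCF-1) had 297, 111 and 136 CPM in NK1.1+ libraries, against 405, 405 and 399 CPM in NK1.1- libraries (log2 fold change −1.15 ± 0.30, adjusted p = 0.032), with NK1.1+ library 1 nearest to the NK1.1- libraries. Of 14 E protein, Id protein and HMG-box genes, several of which stand on both lists, 1 rose (Id2) and 6 fell. Itm2a and Nr4a3 were the early-stage members that rose, and Itm2a had 142, 111 and 133 CPM in NK1.1+ libraries, against 46.6, 35.8 and 60.9 CPM in NK1.1- libraries (log2 fold change 1.43 ± 0.19, adjusted p = 0.00111). The early marker Cd24a was at 56.8, 1.58 and 4.66 CPM in NK1.1+ libraries and 2.78, 0.601 and 1.55 CPM in NK1.1- libraries (adjusted p = 0.087), high only in the NK1.1+ library that held thymocyte RNA. Without that library 12 of the 22 genes were called lower, against 6 to 8 without any other 1 library.

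Genes of cell division were lower in NK1.1+ cells, and the number called depended on which library was left out. The 32 genes summed to 2639, 1648 and 1723 CPM in NK1.1+ libraries, against 3530, 3170 and 4227 CPM in NK1.1- libraries, without overlap. Of the 32, 18 fell and none rose (median −1.26). Rrm2, a subunit of the enzyme that makes deoxynucleotides, had 66.9, 41.2 and 36.7 CPM in NK1.1+ libraries, against 124, 119 and 156 CPM in NK1.1- libraries (log2 fold change −1.46 ± 0.22, adjusted p = 0.00243). Mki67, the gene of the Ki-67 protein, had 56, 18.8 and 17.6 CPM in NK1.1+ libraries, against 77.5, 69.5 and 102 CPM in NK1.1- libraries (log2 fold change −1.43 ± 0.40, adjusted p = 0.0407). Top2a, a topoisomerase of dividing cells, had 122, 68.9 and 49.2 CPM in NK1.1+ libraries, against 189, 156 and 245 CPM in NK1.1- libraries (log2 fold change −1.29 ± 0.30, adjusted p = 0.0178). NK1.1+ library 1 was the highest of its group for all 3. Without it 29 genes were called lower, and without NK1.1+ library 2 or 3 the count was 10. Without NK1.1- library 1, 2 or 3 it was 6, 12 or 2, while calls over all genes were 791, 923 or 788, against 1821. The list median stayed between −1.78 and −0.99 without any 1 library. In WT cells 31 of 32 fell, with a median of −2.45.

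Replication histones, which are made in S phase, had a median log2 fold change of −0.99, with 8 of 52 tested genes lower and 1 higher. In WT cells 33 of 56 were lower. Histone genes are close copies of each other, and the count in miR-155KI ran from 1 to 19 lower when any 1 library was left out.

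Immediate early genes, which cells switch on within minutes of a signal or of handling, were higher in NK1.1+ cells. Of 20 tested, 14 rose (10 to 15 without any 1 library) and 1 fell (0 to 1), with a median of 1.08. No member was called lower without NK1.1+ library 2 or 3 or without any 1 NK1.1- library. Fos had 536, 1256 and 716 CPM in NK1.1+ libraries, against 159.9, 256 and 171 CPM in NK1.1- libraries (log2 fold change 2.10 ± 0.30, adjusted p = 0.00161). Junb had 2886, 4325 and 3734 CPM in NK1.1+ libraries, against 1128, 1546 and 1021 CPM in NK1.1- libraries (log2 fold change 1.57 ± 0.19, adjusted p = 6.33e-04). Dusp1, a phosphatase of MAP kinases, had 1761, 3286 and 2862 CPM in NK1.1+ libraries, against 494, 786 and 603 CPM in NK1.1- libraries (log2 fold change 2.07 ± 0.24, adjusted p = 4.55e-04). Btg2, a brake on proliferation, had 589, 864 and 771 CPM in NK1.1+ libraries, against 268, 312 and 262 CPM in NK1.1- libraries (log2 fold change 1.40 ± 0.15, adjusted p = 3.23e-04). The subsets did not overlap for these 4 genes, and NK1.1+ library 2 was the highest for each. Egr1 was the member that fell, with 133, 108 and 104 CPM in NK1.1+ libraries, against 154, 151 and 169 CPM in NK1.1- libraries (log2 fold change −0.45 ± 0.13, adjusted p = 0.0441). In WT cells Egr1 had 174, 331 and 171 CPM in NK1.1+ libraries, against 162, 190.5 and 167 CPM in NK1.1- libraries (log2 fold change 0.35 ± 0.25, adjusted p = 0.382). Nr4a1 (Nur77), which follows T cell receptor signals, had 312, 490.3 and 231 CPM in NK1.1+ libraries, against 179, 264 and 171 CPM in NK1.1- libraries (log2 fold change 0.75 ± 0.26, adjusted p = 0.0906), and its groups overlapped.

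Of 23 NF-kB pathway genes 8 rose and none fell (median 0.39). The genes that led were inhibitors and targets of the pathway. Tnfaip3 (A20, an inhibitor) had 889, 1259 and 1185 CPM in NK1.1+ libraries, against 313, 531 and 354 CPM in NK1.1- libraries (log2 fold change 1.48 ± 0.21, adjusted p = 0.00136). Nfkbiz had 163, 184 and 190.3 CPM in NK1.1+ libraries, against 74.8, 95.2 and 66.1 CPM in NK1.1- libraries (log2 fold change 1.18 ± 0.16, adjusted p = 9.56e-04). The subunit Rela had 177, 239.8 and 194 CPM in NK1.1+ libraries, against 143, 143 and 145 CPM in NK1.1- libraries (log2 fold change 0.51 ± 0.13, adjusted p = 0.0317), and Rel was at 66.2, 68.5 and 65.7 CPM in NK1.1+ libraries and 45.1, 69.5 and 38 CPM in NK1.1- libraries (adjusted p = 0.279). From 4 to 8 of these genes were called when any 1 library was left out.

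Genes of the Bcl-2 family, some protective and some promoting death, rose in part, 5 of 15 tested (3 to 6 without any 1 library). None fell, and 7.92% of all tested genes rose. Bcl2 itself had 126, 172 and 128 CPM in NK1.1+ libraries, against 57.7, 47.7 and 61 CPM in NK1.1- libraries (log2 fold change 1.36 ± 0.17, adjusted p = 6.22e-04). Bcl2l1 (Bcl-xL) had 87.7, 89.7 and 79.4 CPM in NK1.1+ libraries, against 43.7, 37.7 and 39 CPM in NK1.1- libraries (log2 fold change 1.09 ± 0.14, adjusted p = 8.55e-04). Members that promote death rose too. Bcl2l11 (Bim) had 41.6, 44.6 and 58.1 CPM in NK1.1+ libraries, against 18.1, 29.3 and 18.7 CPM in NK1.1- libraries (log2 fold change 1.13 ± 0.24, adjusted p = 0.0135), and its groups did not overlap. Bid had 49.5, 65.3 and 57.5 CPM in NK1.1+ libraries, against 21.7, 30.1 and 22.8 CPM in NK1.1- libraries (log2 fold change 1.21 ± 0.20, adjusted p = 0.00349). Mcl1 was at 140.0, 76.3 and 153 CPM in NK1.1+ libraries and 66.2, 84.8 and 98.7 CPM in NK1.1- libraries, and did not pass.

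Of 12 genes of the common γ chain receptors and their kinases, 5 rose (3 to 7 without any 1 library) and 1 fell. Besides Il2rb and Il4ra, Il7r had 352, 459.9 and 473 CPM in NK1.1+ libraries, against 263, 310.3 and 286 CPM in NK1.1- libraries (log2 fold change 0.58 ± 0.14, adjusted p = 0.019). Il21r had 214, 259.96 and 326 CPM in NK1.1+ libraries, against 98.4, 110.5 and 99.8 CPM in NK1.1- libraries (log2 fold change 1.37 ± 0.16, adjusted p = 4.28e-04). Il21, the ligand of that receptor, moved the other way, with 0.53, 1.4 and 1.64 CPM in NK1.1+ libraries, against 18.5, 19.3 and 18.1 CPM in NK1.1- libraries (log2 fold change −3.96 ± 0.46, adjusted p = 4.89e-04). Stat5b was the member that fell, with 103, 88.7 and 81.4 CPM in NK1.1+ libraries, against 161, 139.8 and 154 CPM in NK1.1- libraries (log2 fold change −0.74 ± 0.13, adjusted p = 0.00537). Among 15 inhibitory and costimulatory receptors 3 rose and 5 fell. Tnfrsf18 (GITR) had 212, 316 and 257 CPM in NK1.1+ libraries, against 103, 119 and 113 CPM in NK1.1- libraries (log2 fold change 1.23 ± 0.15, adjusted p = 7.02e-04). Cd96, a receptor of nectin ligands, had 152, 138 and 219.7 CPM in NK1.1+ libraries, against 67, 76.7 and 97.6 CPM in NK1.1- libraries (log2 fold change 1.08 ± 0.20, adjusted p = 0.00595). Btla had 28.9, 32.9 and 38 CPM in NK1.1+ libraries, against 66.4, 75.4 and 77.9 CPM in NK1.1- libraries (log2 fold change −1.14 ± 0.16, adjusted p = 0.00157). Cd28 had 291, 326 and 383 CPM in NK1.1+ libraries, against 536, 542 and 546 CPM in NK1.1- libraries (log2 fold change −0.70 ± 0.12, adjusted p = 0.00423). The groups of each of these 4 genes did not overlap.

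Metabolic and interferon-stimulated lists differed in their share of calls. The glycolysis and interferon-stimulated lists held a larger share of lower genes than the 6.15% of all tested genes, and the cholesterol synthesis list held no calls. Of 17 glycolysis genes 4 fell (1 to 4 without any 1 library) and 1 rose (median −0.34). Ldha (lactate dehydrogenase A) fell, with 783, 977 and 842 CPM in NK1.1+ libraries, against 1284, 1206 and 1366 CPM in NK1.1- libraries (log2 fold change −0.57 ± 0.12, adjusted p = 0.0106). The glucose transporter Slc2a3 rose, with 101, 83.2 and 114 CPM in NK1.1+ libraries, against 59.9, 59.1 and 50.01 CPM in NK1.1- libraries (log2 fold change 0.82 ± 0.16, adjusted p = 0.00807). None of 19 cholesterol synthesis genes passed edgeR's test, while 3 had an unadjusted p under 0.05. Of 20 interferon-stimulated genes 1 rose and 3 fell. The 1 that rose was Ifit3, with 223, 183 and 290.3 CPM in NK1.1+ libraries, against 128, 112 and 97.6 CPM in NK1.1- libraries (log2 fold change 1.04 ± 0.18, adjusted p = 0.00408). Oasl2, an OAS family member, had 62.8, 60.9 and 62.7 CPM in NK1.1+ libraries, against 136, 138 and 125 CPM in NK1.1- libraries (log2 fold change −1.10 ± 0.12, adjusted p = 3.32e-04). Of 14 TGF-β receptor and SMAD genes, Tgfbr1 rose and Tgfbr3 fell, and from 0 to 2 were called in each direction without any 1 library. Of 78 cytosolic ribosomal protein genes 6 fell (2 to 8 without any 1 library), and of 78 respiratory chain and ATP synthase genes 7 fell (0 to 11), with a median of −0.18 in each list and none higher. The TGF-β list was called at about the share of all tested genes (7.92% higher and 6.15% lower). The ribosomal and respiratory lists held somewhat larger shares of lower genes than 6.15%. In 28 ribosomal and 31 respiratory genes all NK1.1+ libraries lay below all NK1.1- libraries, against 17.1% of all tested genes. In each list 68 of 78 genes had a negative log2 fold change. DESeq2 called 17 ribosomal and 15 respiratory genes lower.

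**Figure D4:**
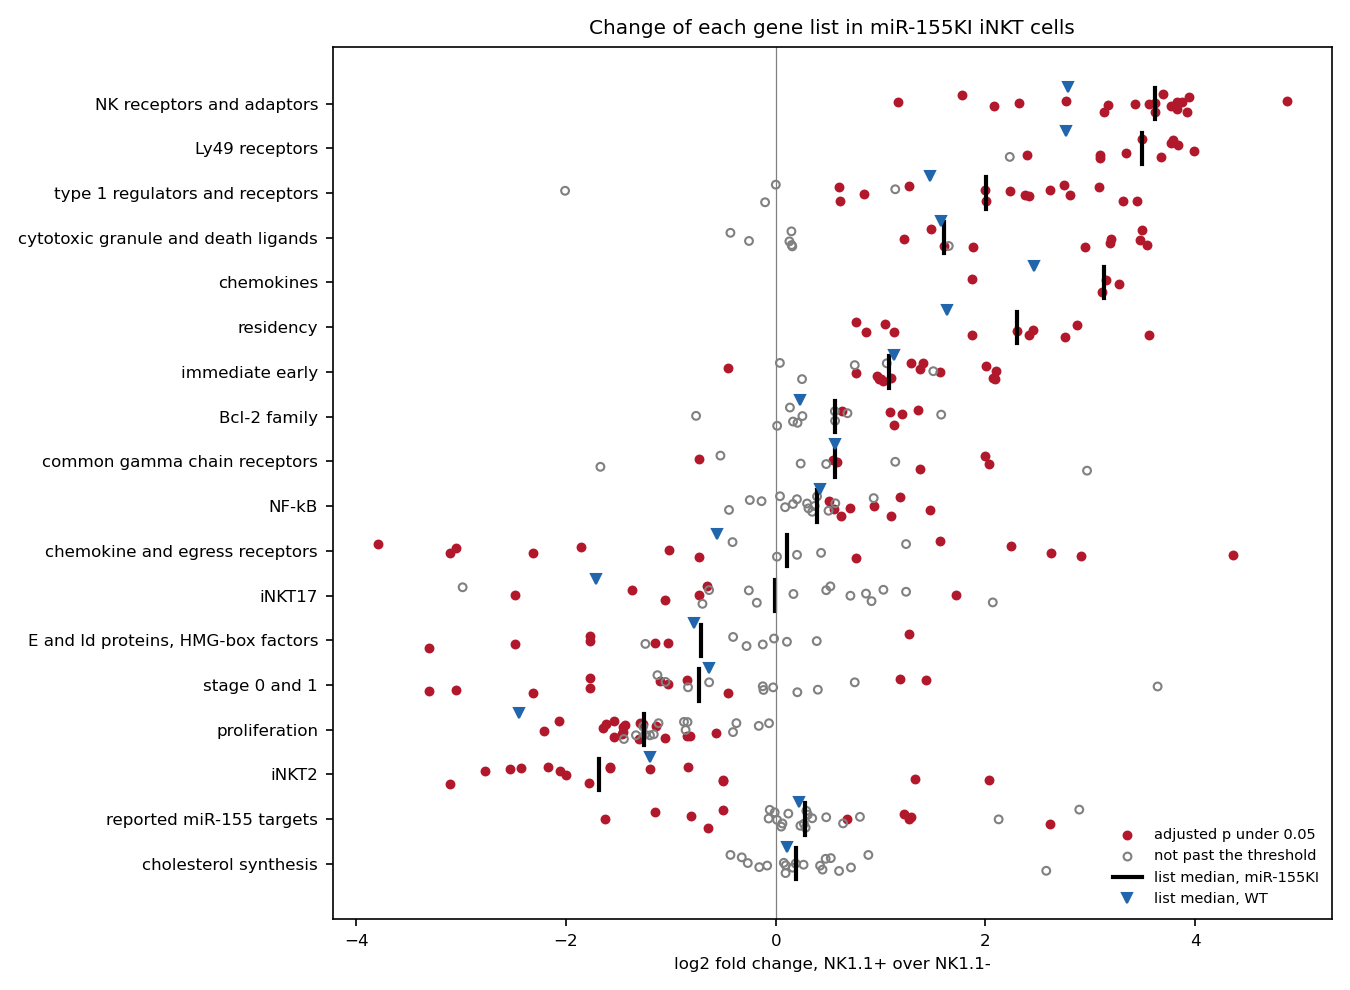
Log2 fold change, miR-155KI NK1.1+ over NK1.1-, of each tested gene of the lists, with filled points past an adjusted p of 0.05, the list median as a bar and the WT median as a triangle. NK receptors (median 3.62), Ly49 receptors (3.49) and chemokines (3.13) lay farthest to the right, and iNKT2 (−1.68) and proliferation genes (−1.26) farthest to the left.

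By size, 11 of the 15 largest rises among genes with at least 10 CPM in a group were NK or Ly49 receptor genes. The others were Gdf15, Adgre1, Styk1 and Dmrta1. Styk1 had 162, 218 and 196 CPM in NK1.1+ libraries, against 12, 15.7 and 12.6 CPM in NK1.1- libraries (log2 fold change 3.84 ± 0.18, adjusted p = 8.47e-06), and the groups did not overlap. Gdf15, a stress-induced ligand of the TGF-β family, had 3.05, 28.5 and 7.25 CPM in NK1.1+ libraries, against 0.463, 0.676 and 0.642 CPM in NK1.1- libraries (log2 fold change 4.44 ± 0.84, adjusted p = 0.00709). Adgre1 (F4/80, a macrophage marker) had 4.44, 22.6 and 6.43 CPM in NK1.1+ libraries, against 0.823, 0.676 and 0.642 CPM in NK1.1- libraries (log2 fold change 3.95 ± 0.71, adjusted p = 0.00558). Both were highest in NK1.1+ library 2, where myeloid markers were highest. Of the 12 myeloid markers tested 6 rose, C1qa, C1qb, C1qc, Csf1r, Adgre1 and Fcgr3, and C1qa had 18.5, 68.9 and 25 CPM in NK1.1+ libraries, against 4.37, 1.73 and 6.58 CPM in NK1.1- libraries (log2 fold change 3.14 ± 0.58, adjusted p = 0.00664). In WT cells C1qa was at 2.58, 1.51 and 1.95 CPM in NK1.1+ libraries and 8.02, 1.83 and 1.34 CPM in NK1.1- libraries. Without NK1.1+ library 2 the log2 fold change was 3.11 for Gdf15 (adjusted p = 0.0172), 2.91 for Adgre1 (adjusted p = 0.0132) and 2.35 for C1qa (adjusted p = 0.0151), and 7 of 14 tested myeloid markers rose.

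Genes were also taken by the size of their fall. Parm1, a membrane mucin-like protein, had 0.927, 0.76 and 0.693 CPM in NK1.1+ libraries, against 23.1, 19.5 and 25.4 CPM in NK1.1- libraries (log2 fold change −4.82 ± 0.36, adjusted p = 3.21e-05). Sostdc1, a secreted antagonist of BMP and Wnt signalling, had 1.52, 1.87 and 2.71 CPM in NK1.1+ libraries, against 36.4, 46.6 and 56.6 CPM in NK1.1- libraries (log2 fold change −4.51 ± 0.31, adjusted p = 2.23e-05). Csf1, the growth factor of macrophages, had 11, 9.88 and 7.75 CPM in NK1.1+ libraries, against 162, 116 and 171 CPM in NK1.1- libraries (log2 fold change −3.97 ± 0.21, adjusted p = 8.53e-06). The lowest NK1.1- library of each lay far above the highest NK1.1+ library. Lif, a cytokine of the interleukin-6 family, had 0.662, 0.468 and 0.567 CPM in NK1.1+ libraries, against 12.7, 8.19 and 16 CPM in NK1.1- libraries (log2 fold change −4.43 ± 0.50, adjusted p = 4.22e-04). Cxcr5, the receptor that guides cells to B cell follicles, had 3.58, 2.22 and 2.9 CPM in NK1.1+ libraries, against 50.2, 43.6 and 26.5 CPM in NK1.1- libraries (log2 fold change −3.79 ± 0.34, adjusted p = 9.80e-05). Akr1c18, a progesterone-degrading enzyme, had 5.23, 8.53 and 5.42 CPM in NK1.1+ libraries, against 94.8, 54.3 and 249.5 CPM in NK1.1- libraries (log2 fold change −4.37 ± 0.55, adjusted p = 0.00124), with NK1.1- library 3 the highest. Irak3, an inhibitor of Toll-like receptor signalling, had 3.18, 0.935 and 1.32 CPM in NK1.1+ libraries, against 22.1, 21 and 29.6 CPM in NK1.1- libraries (log2 fold change −3.75 ± 0.47, adjusted p = 7.53e-04). The subsets did not overlap for any of these 7 genes, as the rule by which they were taken required. B cell markers summed to 338, 323 and 278 CPM in NK1.1+ libraries and 275, 113 and 95 CPM in NK1.1- libraries. MHC class II genes summed to 249, 132 and 113 CPM in NK1.1+ libraries and 234, 140 and 173 CPM in NK1.1- libraries. Regulatory T cell markers summed to 109, 63.1 and 74.7 CPM in NK1.1+ libraries and 85.5, 85.2 and 77.6 CPM in NK1.1- libraries, and γδ T cell markers to 792, 901 and 932 CPM in NK1.1+ libraries and 924, 1024 and 770 CPM in NK1.1- libraries. These 3 lists overlapped between the subsets.

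Genes reported elsewhere as miR-155 targets moved in both directions between the subsets, both of which carry the allele. Of 28 tested, 5 rose and 5 fell (3 to 6 and 2 to 5 without any 1 library), and the median log2 fold change was 0.28, against 0.03 for all tested genes. Over all tested genes 7.92% rose and 6.15% fell, smaller shares than in this list. Socs1, an inhibitor of cytokine signalling, had 150.4, 225 and 205 CPM in NK1.1+ libraries, against 88.8, 94.3 and 65.7 CPM in NK1.1- libraries (log2 fold change 1.22 ± 0.19, adjusted p = 0.00257). Peli1, a ubiquitin ligase, had 188, 223 and 271 CPM in NK1.1+ libraries, against 81.5, 112 and 88.9 CPM in NK1.1- libraries (log2 fold change 1.27 ± 0.17, adjusted p = 9.83e-04), and Ifngr1 was given above. Hif1a, the oxygen-sensing factor, had 84.5, 80.4 and 101 CPM in NK1.1+ libraries, against 159, 162 and 145 CPM in NK1.1- libraries (log2 fold change −0.81 ± 0.13, adjusted p = 0.00319). Jarid2, a partner of PRC2, had 87.4, 82.8 and 78.3 CPM in NK1.1+ libraries, against 136, 107 and 109 CPM in NK1.1- libraries (log2 fold change −0.50 ± 0.14, adjusted p = 0.0404). These 4 genes did not overlap between the subsets. Inpp5d (SHIP1), the best known target, was at 184, 257 and 225 CPM in NK1.1+ libraries and 181, 183 and 189 CPM in NK1.1- libraries (adjusted p = 0.229). Rictor and Tab2 did not pass, with log2 fold changes of 0.31 ± 0.18 and 0.35 ± 0.22. Of 22 genes that the study had chosen on these samples, 8 rose (3 to 8 without any 1 library) and 2 fell, which is not independent evidence of a direction.

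The seed of miR-155-5p pairs with the letters AGCATTAA when an A follows the seed match, and this site stood in a 3′ UTR of 719 of 21824 annotated genes. Of the 441 with a site that were tested, 33 rose (7.48%) and 28 fell (6.35%), with a median log2 fold change of 0.06. Of the 10928 without one, 904 rose (8.27%) and 717 fell (6.56%), with a median of 0.02. In WT cells 9.91% of the genes with a site rose and 8.62% fell, against 10.2% and 11.9% of the genes without one. A match is a description of the letters and not a shown site of action.

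The same contrast in WT cells called 1341 genes higher (9.89%) and 1478 lower (10.9%) of 13555 tested. Of the genes tested in both genotypes 1790 were called in miR-155KI and 2784 in WT, and 1235 were called in both in the same direction. These were 69% of the miR-155KI calls and 44.4% of the WT calls, and 1 gene, Aqp11, was called in opposite directions. Of the 1790 miR-155KI calls, 1729 had the same sign in WT. The residual spread was larger in miR-155KI, with a biological coefficient of variation of 0.353 in miR-155KI and 0.238 in WT. The test of the difference itself, fitted on all 12 libraries, called 4 of 14401 genes (0.0278%), 1 with a higher (0.00694%) and 3 with a lower change (0.0208%) in miR-155KI, while 1167 had an unadjusted p under 0.05. With the replicate number as a block 23 were called. On simulated data the test without the block recovered 8% of 2-fold and 56% of 4-fold differences. A small number of calls therefore does not show that the other genes changed alike in the 2 genotypes.

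In Sostdc1, Csf1 and Parm1 the gap between the subsets was wider in miR-155KI. Sostdc1 had 2.37, 1.86 and 1.75 CPM in NK1.1+ libraries, against 3.42, 2.57 and 2.73 CPM in NK1.1- libraries in WT cells, so the genotypes lay apart in the NK1.1- and not in the NK1.1+ libraries, and the difference of log2 fold changes, miR-155KI minus WT, was −3.97 ± 0.42 (adjusted p = 7.89e-04). Csf1 had 13.3, 10.8 and 11.2 CPM in NK1.1+ libraries, against 45.5, 44.8 and 51.1 CPM in NK1.1- libraries in WT cells, with a difference of −1.97 ± 0.25 (adjusted p = 0.00547). Parm1 had 1.7, 2.45 and 1.3 CPM in NK1.1+ libraries, against 5.16, 5.02 and 7.86 CPM in NK1.1- libraries in WT cells, with a difference of −3.10 ± 0.50 (adjusted p = 0.0438). In all 3 the NK1.1+ libraries of both genotypes were low and the NK1.1- libraries of miR-155KI were the high ones. Aqp11, a water channel, had 35, 25.1 and 18.1 CPM in NK1.1+ libraries, against 7.26, 5.19 and 4.76 CPM in NK1.1- libraries in miR-155KI and 9.44, 9.03 and 9.65 CPM in NK1.1+ libraries, against 14.1, 15.4 and 19.9 CPM in NK1.1- libraries in WT, so the order of the subsets was opposite, with a difference of 2.99 ± 0.40 (adjusted p = 0.00577). Aqp11 stands on the double-positive thymocyte list, whose sum was highest in miR-155KI NK1.1+ library 1, and without that library its difference was 2.76 (adjusted p = 0.00904).

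Genes next in order did not pass without the block. Zfp683 (Hobit) had 209, 171 and 172 CPM in NK1.1+ libraries, against 62.9, 57 and 53.5 CPM in NK1.1- libraries in WT cells and a difference of 1.09 ± 0.19 (adjusted p = 0.0527). Samd3 had 103, 157 and 138 CPM in NK1.1+ libraries, against 10.8, 14.1 and 13.1 CPM in NK1.1- libraries in miR-155KI, and 132, 111 and 106 CPM in NK1.1+ libraries, against 36, 35.6 and 24.6 CPM in NK1.1- libraries in WT, with a difference of 1.54 ± 0.26 (adjusted p = 0.0527). Myo1f, a myosin of leukocytes, had 404, 529 and 499.8 CPM in NK1.1+ libraries, against 41.6, 60.1 and 51.9 CPM in NK1.1- libraries in miR-155KI, and 480.2, 440.3 and 430.5 CPM in NK1.1+ libraries, against 97.3, 130.4 and 101 CPM in NK1.1- libraries in WT (adjusted p = 0.0668). For these 3 the NK1.1+ levels of the genotypes were alike in range and the NK1.1- levels were lower in miR-155KI. Myo6 had 33, 36.9 and 30.1 CPM in NK1.1+ libraries, against 90.4, 72.1 and 77.6 CPM in NK1.1- libraries in miR-155KI, and 58.6, 55.2 and 43.4 CPM in NK1.1+ libraries, against 47.8, 58.2 and 48.2 CPM in NK1.1- libraries in WT (adjusted p = 0.0536), and Maml2 had 23.2, 26.2 and 29.2 CPM in NK1.1+ libraries, against 34.6, 34.7 and 36.5 CPM in NK1.1- libraries in miR-155KI, and 39.8, 38.6 and 46.6 CPM in NK1.1+ libraries, against 22.5, 23.6 and 17.2 CPM in NK1.1- libraries in WT (adjusted p = 0.0536). With the replicate number as a block, Samd3 (adjusted p = 0.0102), Zfp683 (0.0175), Myo1f (0.0175) and Myo6 (0.0369) passed, Maml2 did not (0.0663), and Parm1 no longer did (0.0522). The genotypes also differed in sex-linked RNA. Ddx3y, a Y-linked gene, was at 55.4 to 76.6 CPM in the 6 miR-155KI libraries, while libraries 2 and 3 of both WT groups held 3.29 to 6.91 CPM of it and 135 to 237 CPM of Xist, and the part of this in the differences between genotypes was not tested.

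**Figure D5:**
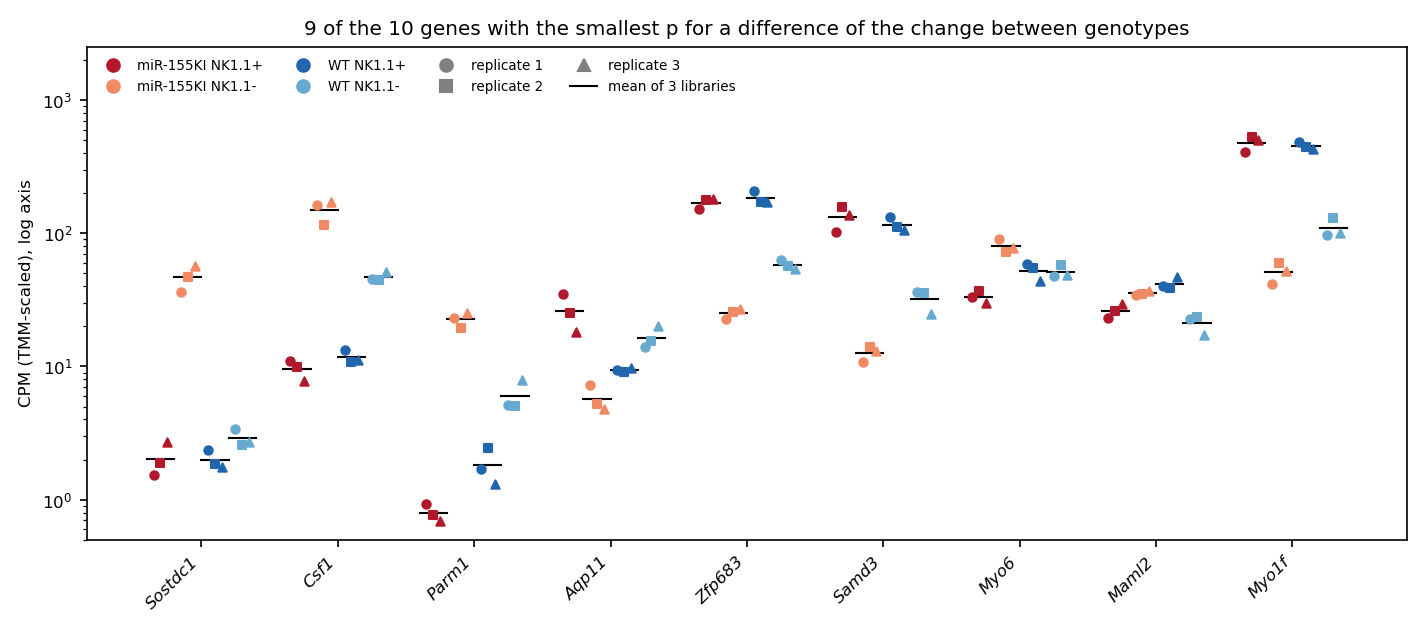
CPM (log axis) of 9 of the 10 genes with the smallest p for a difference between the genotypes, in each of the 12 libraries, with means as lines and miR-155KI left of WT. Sostdc1, Csf1 and Parm1 were highest in the miR-155KI NK1.1- libraries. Aqp11 had its highest mean in the miR-155KI NK1.1+ libraries, which overlapped the WT NK1.1- libraries.

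Type 1 and NK receptor genes had larger medians in miR-155KI than in WT without passing as single genes. The medians were 2.01 in miR-155KI and 1.47 in WT for the type 1 list, and 3.62 in miR-155KI and 2.78 in WT for the NK receptors, over 19 tested genes in miR-155KI and 20 in WT. The difference between these medians was not tested. Tbx21 had 437, 481 and 366 CPM in NK1.1+ libraries, against 131, 146 and 123 CPM in NK1.1- libraries (log2 fold change 1.65 ± 0.14, adjusted p = 2.13e-05) in WT cells, and its difference between the genotypes was 1.12 ± 0.29 (adjusted p = 0.293). Ifng had 206, 237 and 129 CPM in NK1.1+ libraries, against 39, 70.3 and 49.2 CPM in NK1.1- libraries in WT cells, with a difference of 1.46 ± 0.41 (adjusted p = 0.327). In both genes the miR-155KI NK1.1- libraries were below the WT NK1.1- libraries.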

How the data were processed

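RNA from sorted thymic iNKT cells was sequenced in 12 libraries. The authors deposited whole-number read counts for 48709 gene names and a signal table of CPM per gene. The submitters' processing notes name bcl2fastq 2.17.1.14 and the build mm10 (GRCm38). The aligner and counter are not given in the sources used here, and the labels (SMART-Seq v4) and methods (TruSeq) name different kits. Every deposited CPM value came back as whole reads within a tolerance of 0.01, and those reads equalled the counts. Spreadsheet dates stood in place of 27 names (0.249% of counts). The libraries held 12819476 to 20518257 counts.

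Counts were filtered with filterByExpr, scaled by TMM and tested with edgeR 4.0.16 (quasi-likelihood, robust) in R 4.3.3, with p-values adjusted by Benjamini and Hochberg over all tested genes and a threshold of 0.05. Each genotype was fitted on its own 6 libraries, and the difference between genotypes on all 12. Deviations of same-numbered WT libraries correlated at 0.39, 0.275 and 0.172, so the numbers pair the WT samples by correlation, with no label saying what a number shares. SE is the log2 fold change divided by the square root of F. DESeq2 1.42.0 and limma 3.58.1 served as alternatives, and figures were drawn in Python 3.11.15. The code was tested on simulated data with 50 genes changed at each fold size. The miR-155KI test recovered 8% of 1.5-fold, 30% of 2-fold, 70% of 4-fold and 72% of 8-fold changes. For the difference between genotypes the shares were 0%, 8%, 56% and 58%.

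Named genes were the 15 largest rises and falls with at least 10 CPM in a group and no overlap, up to 6 members of each list by p, any member of the type 1, NK receptor, Ly49, cytotoxic, chemokine, iNKT2, iNKT17 and early-stage lists, the 10 smallest p for the difference between genotypes, genes the study names, and Klrb1c, Cd44 and Mir155hg. Chosen after their values were seen were Cd28, Cd96, Clec2d, Cx3cr1, Ddx3y, Inpp5d, Mcl1, Mki67, Rela, S1pr1, S1pr5, Tcf7, Top2a, Traj18 and Xist. The members and lists were chosen with earlier results of these data known. Some genes of the lists are not reported here by name.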

Additional observations from a re-analysis of the deposited data

Results flagged for a closer look

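These 4 genes drew attention because the change between NK1.1+ and NK1.1- cells was not the same in the 2 genotypes by the test of the difference itself, in edgeR with Benjamini-Hochberg adjustment. Sostdc1 differed by −3.97 ± 0.42 on the log2 scale, miR-155KI minus WT (adjusted p = 7.89e-04). Csf1 differed by −1.97 ± 0.25 (adjusted p = 0.00547), and Aqp11 by 2.99 ± 0.40 (adjusted p = 0.00577). Parm1 differed by −3.10 ± 0.50 (adjusted p = 0.0438). Over 22 alternative fits each, the call was lost 12 times for Parm1, 2 times each for Sostdc1 and Csf1 (with limma-voom and with sample quality weights) and 1 time for Aqp11 (with limma-voom). Groups of 3 libraries were not searched for single outlying values.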

How the results depend on the processing

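Calls between the miR-155KI subsets, 1821 in all, were 1819 with DESeq2's size factors in edgeR, 2513 with DESeq2, 1949 with limma-voom and 1821 on the reads recovered from the CPM table, an alternative chosen after seeing the data. They were 1053 with a fold change over 2 as well, and 788 to 2542 without 1 library. WT calls were 1359 with a fold over 2 and 1832 to 3264 without 1 library. Genes whose change differed between genotypes, 4 in all, were 7 with DESeq2's size factors, 124 with DESeq2, 0 with limma-voom, 8 with sample quality weights, 162 with no filter, 10 with at least 10 counts in every library, and 3 to 46 without 1 library. The last count was 46, 7 and 14 without miR-155KI NK1.1+ library 1, 2 and 3, and the WT count 1832 without WT NK1.1+ library 3. Over the fold changes of 159 genes, 168 of 2853 values across the alternatives lost their call, 26 gained one and none of those called changed sign.

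With the replicate number as a block (replicate block), 1838 miR-155KI genes and 23 genes that differed between genotypes were called. Deviations of same-numbered miR-155KI libraries correlated at 0.138, 0.0895 and 0.0623, not all over 0.1, although each NK1.1+ library correlated best with its own number. Red cell RNA was also high in library 3, and Klra4 in library 2, of both miR-155KI subsets. In WT, Ddx3y was at 52.4 CPM in NK1.1- and 62.5 CPM in NK1.1+ library 1. It was at 3.29 to 6.91 CPM in libraries 2 and 3 of both WT subsets. These are hints of pairing from the data and not the design. The sample titles join the number to the genotype, ahead of the subset. No label says what a number shares, and the main test did not use it. WT calls were 4053 with the block, against 2819 without it. The median of the interferon-stimulated list reversed to −0.053 on both log2 CPM scales, −0.0059 without NK1.1+ replicate 2 and −0.00022 without NK1.1+ replicate 3, and that of cholesterol synthesis to −0.0096 with CPM + 1 and −0.010 with CPM + 0.1. In all, 9 of 34 list medians took both signs, among them iNKT17 (−0.72 to 0.45), MHC class II (−0.72 to 0.36), chemokine and egress receptors (−0.22 to 0.22), regulatory T cell markers (−1.40 to 0.80) and B cell markers (−0.02 to 0.97). The cause of these changes was not tested. Depth limits genes under a few CPM, and intervals between 3 libraries cover only their spread.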

Other observations

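Klrb1a, a relative of NK1.1 in the NK gene complex, had 13, 43.8 and 9.96 CPM in NK1.1+ libraries, against 4.43, 6.01 and 2.995 CPM in NK1.1- libraries in miR-155KI. In WT cells it had 6.76, 35.8 and 3.998 CPM in NK1.1+ libraries, against 8.57, 9.42 and 2.9 CPM in NK1.1- libraries. Like Klra4, it was highest in library 2 of each of the 4 groups.

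Immunoglobulin heavy chain RNA was higher in NK1.1+ cells. Ighm had 234, 298 and 231 CPM in NK1.1+ libraries, against 99.4, 83.4 and 75.7 CPM in NK1.1- libraries (log2 fold change 1.56 ± 0.15, adjusted p = 1.75e-04). Ighd had 7.35, 4.97 and 14.3 CPM in NK1.1+ libraries, against 0.617, 1.2 and 0.642 CPM in NK1.1- libraries (log2 fold change 3.44 ± 0.62, adjusted p = 0.00572), and in WT cells 9.7, 5.13 and 6.5 CPM in NK1.1+ libraries, against 0.906, 1.37 and 1.62 CPM in NK1.1- libraries. The B cell marker Cd79a was at 3.44, 1.52 and 3.84 CPM in NK1.1+ libraries and 6.12, 3.46 and 1.82 CPM in NK1.1- libraries, so it overlapped between the subsets while Ighm and Ighd did not.

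Of 9 MHC class II genes 2 fell, both of the H2-O complex that restrains peptide loading. H2-Oa had 5.63, 4.91 and 2.71 CPM in NK1.1+ libraries, against 18.6, 19.2 and 22.5 CPM in NK1.1- libraries (log2 fold change −2.19 ± 0.35, adjusted p = 0.00317). H2-Ob had 5.3, 3.27 and 1.26 CPM in NK1.1+ libraries, against 15.2, 12.2 and 10.5 CPM in NK1.1- libraries (log2 fold change −1.95 ± 0.52, adjusted p = 0.0351). The classical gene H2-Ab1 was at 29.5, 23.9 and 9.07 CPM in NK1.1+ libraries and 26, 4.51 and 10.2 CPM in NK1.1- libraries, and did not pass.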
